A study of Homo sapiens with 8 samples.

Results

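ENAH, CTNND1, EXOC7, SLK, NUMB, CD46, MAGI1, TCF7L2 and LSR are genes whose alternative exons are known to be spliced differently in epithelial and mesenchymal cells. They were taken by gene symbol from the 2 deposited tables of skipped-exon events, in which an event is a middle exon with a given exon on each side. They made up 9 of 13437 genes and 181 of 123924 events over both tables, and 89 of their events were listed for both cell lines. The 181 events described 91 exon forms, counting alternative ends of an exon separately. Of these, 49 had enough reads to be tested in at least 1 comparison and 42 did not.

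RNA was sequenced from 2 human breast lines. MCF10A is a non-tumorigenic epithelial line, and HMLE TWIST is an immortalised breast epithelial line that overexpresses the transcription factor TWIST from a retroviral pBabe construct. Each was kept for 24 hours with the solvent DMSO, called untreated here, or with emetine at 10 µM, an alkaloid that inhibits translation, with 2 libraries in each of the 4 groups. HMLE cells without TWIST were not analysed here, so the effect of TWIST and other differences between the lines cannot be told apart.

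When epithelial cells take on a mesenchymal state, many transcripts keep their level and change their exons. The epithelial splicing regulators ESRP1 and ESRP2 hold a set of exons in their epithelial form, and other RNA-binding proteins such as QKI and the RBFOX family act on mesenchymal forms. The proteins affected sit at the actin cytoskeleton, cell junctions, membrane traffic and signalling. For 2 of the genes the epithelial form is well established and was used here: ENAH includes its 63-nucleotide exon in epithelial cells, and CTNND1 skips exons near its 5′ end. For the other 7 genes only the direction relative to the other line is given.

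The libraries held 78412292 to 91259363 junction reads, a read being counted once for each event it falls in. Of 15 listed epithelial markers, 6 were present for both lines and had fewer junction reads in both HMLE TWIST controls than in both MCF10A controls, 4 appeared only for MCF10A and 5 for neither. For each gene with an event in a line, the most covered event there was counted. These summed to 844 to 877 reads per 1000000 junction reads (RPM) in the MCF10A controls, over 10 genes. In the HMLE TWIST controls the sum was 0.340 to 0.711, over 6 genes. KRT5, absent from the HMLE TWIST events, held 669 and 651 RPM of the MCF10A sums. The sums of the lines thus cover unlike genes and events. Of 14 mesenchymal markers, 9 were present for both lines, of which 8 were higher in both HMLE TWIST controls, and 3 appeared only for HMLE TWIST. The other marker present for both was QKI, with overlapping controls. It had 14.2 and 14.7 RPM in MCF10A and 15.0 and 13.1 in HMLE TWIST. The mesenchymal sum was 3958 to 3988 RPM in the HMLE TWIST controls. In the MCF10A controls it was 356 to 376, of which VIM held 318 and 340. ESRP1 was covered by 1046 and 943 reads in untreated MCF10A, and by 0 and 2 in untreated HMLE TWIST. Under emetine the epithelial sum in MCF10A was 483 to 488 and the mesenchymal sum 108 to 112, and the mesenchymal sum in HMLE TWIST was 2002 to 2268. Not all mesenchymal markers fell in MCF10A. VIM was at 71.6 and 76.0 RPM under emetine, while QKI was higher than in the controls, at 32.4 and 23.4. The part of these shifts in the splicing results was not tested. In bulk RNA, fewer cells of a type and less RNA per cell cannot be told apart.

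The values below are inclusion levels, from 0 (always skipped) to 1, estimated from junction reads corrected for the effective lengths of the forms. A level is the share with the middle exon among transcripts that either include it or join the outer exons of that event directly. It is not a share of all transcripts of the gene, and the same exon can have another level with other neighbours. An event was called where its adjusted p-value in a quasi-binomial model with dispersions moderated by limma was under 0.05 and the levels differed by at least 0.1. The p-values measure only the spread between these libraries, and an exact permutation test of 2 against 2 libraries could not go below 0.333. Unless another test is named, adjusted p-values come from the quasi-binomial model.

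The untreated lines differed in these exons more often than in most. The genes were chosen with earlier results of these data known, so the comparisons of shares here and below are a description. Of 52 tested member events 21 were called (40.4%), 13 with more inclusion in HMLE TWIST and 8 with less, against 6.49% of all 19301 tested events (2.15% with more and 4.34% with less). They lay in 8 of 8 genes with a tested event, 4 genes with more inclusion and 4 with less, and 8 of the 13 events with more were CTNND1 events, several of which share reads. LSR had no tested event. The median absolute difference was 0.109 for the members and 0.0165 for all tested events. The calls rested on a dispersion estimated over all events: limma on the log2 odds called 2 of the 52 (36 of 19301 overall), with 27 at an unadjusted p-value under 0.05. Leaving out 1 library at a time left 14 to 21 calls.

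**Figure D1:**
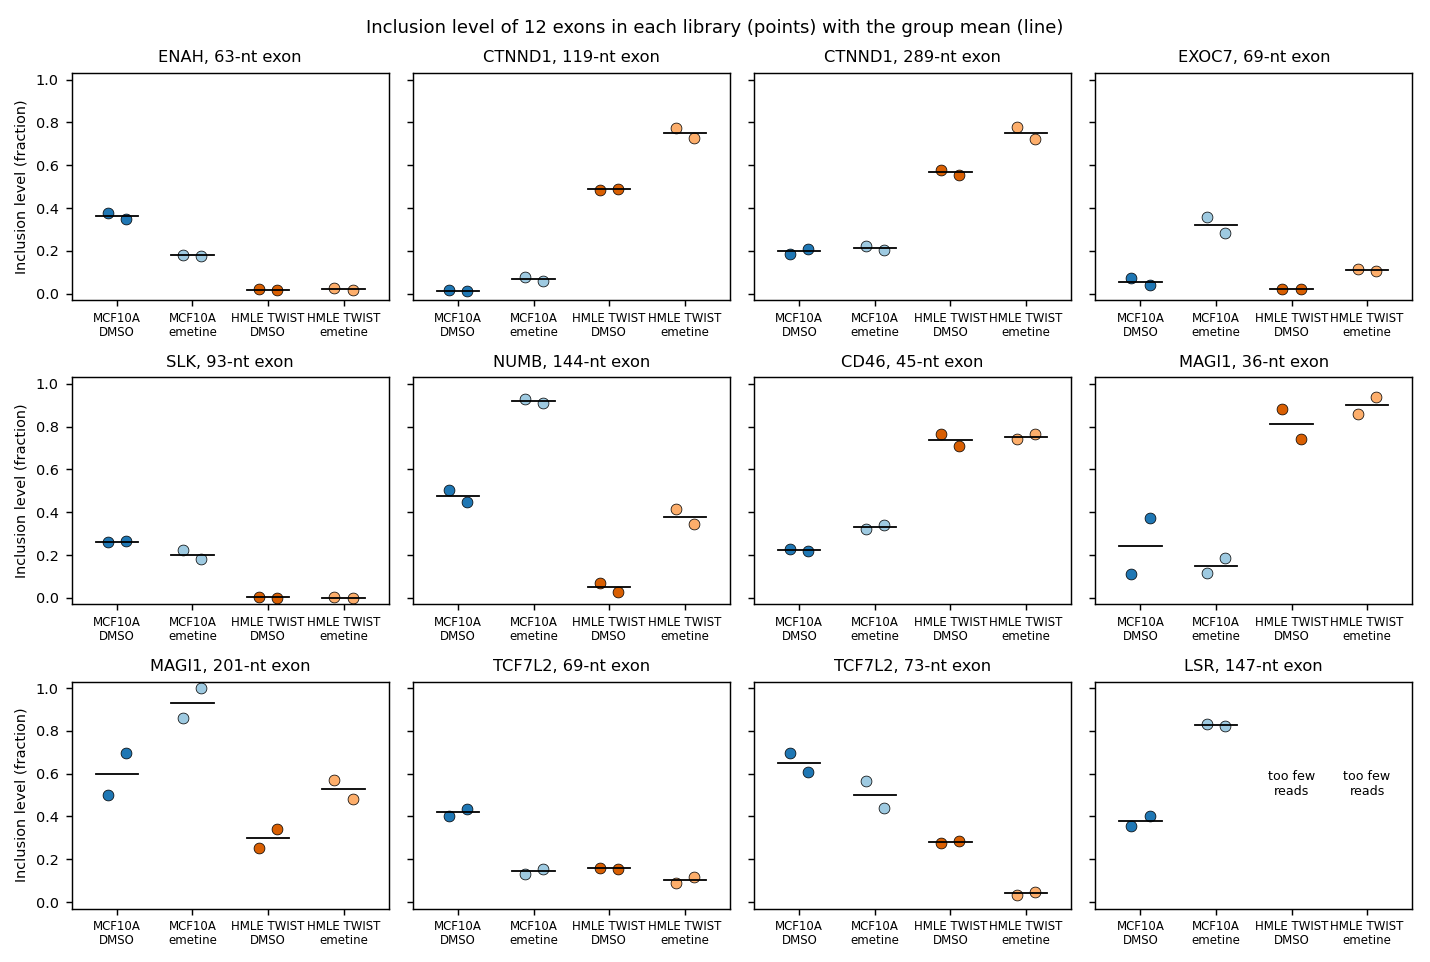
Inclusion level (vertical axis, fraction from 0 to 1) of 12 exons, with a point for each library and a line at the mean of the 2 libraries of a group. The exons are those with the largest tested difference in each gene, and the next 3 that do not overlap an exon already shown. The ENAH, SLK, NUMB and TCF7L2 points lie higher in MCF10A controls than in HMLE TWIST controls, those of CTNND1, CD46 and MAGI1 36-nt lie lower, and LSR had 1 to 26 reads per HMLE TWIST library, too few to plot.

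ENAH encodes Mena, a protein that binds growing actin filaments. Its 63-nucleotide coding exon, chr1:225692693-225692755 (minus strand, GRCh37), is the one epithelial cells include. It is printed because its direction is known, and the capitals in it and in the sequences that follow mark runs of at least 3 G, since the series concerns RNA G-quadruplexes, structures built from such runs.
ENAH 63-nt: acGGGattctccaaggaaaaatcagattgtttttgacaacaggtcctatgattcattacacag
The exon had 1 run of GGG on the transcript strand, and 46.2% of tested exons of similar length (within 10 nucleotides) had at least 1.

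Inclusion of that exon was 0.377 and 0.349 in the untreated MCF10A libraries, and 0.0201 and 0.0154 in those of HMLE TWIST. Untreated HMLE TWIST almost lacked the epithelial form, with a difference of -0.345 (adjusted p = 3.48e-40; limma 0.0579). Under emetine the level in MCF10A was 0.180 and 0.178, below both controls, a change of -0.184 (adjusted p = 3.51e-07; limma 0.0709) and away from the epithelial form. The level in HMLE TWIST was 0.0275 and 0.0151 under emetine, overlapping the controls (change 0.00353, adjusted p = 0.597). The changes differed between the lines by 0.187 (adjusted p = 0.0208; limma 0.401, both tested on the odds of inclusion). That call was lost without either emetine library of either line and without either HMLE TWIST control. With so low a level in the HMLE TWIST controls, a fall of the size seen in MCF10A had no room there. Beside this fall of the epithelial form in MCF10A, ESRP1 had 13.3 and 11.3 RPM in the controls against 4.54 and 5.28 under emetine. The part of that shift was not tested.

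A second site in ENAH, an exon with alternative ends of 111 and 795 nucleotides, behaved differently from the 63-nucleotide exon. The 111-nucleotide form was included at 0.877 and 0.887 in MCF10A controls and at 0.776 and 0.688 in HMLE TWIST controls (difference -0.150, adjusted p = 1.98e-06; limma 0.198). Emetine raised it to 0.881 and 0.819 in HMLE TWIST (change 0.118, adjusted p = 0.0261; limma 0.187). In MCF10A it was 0.953 and 0.945 under emetine, a change of 0.0670, under the 0.1 needed for a call. The 795-nucleotide form, which shares skipping reads with it, rose in both lines, by 0.136 in MCF10A (adjusted p = 0.000255; limma 0.0599) and by 0.176 in HMLE TWIST (adjusted p = 0.0134; limma 0.145). The line differences of both forms were lost without HMLE TWIST control replicate 2 (adjusted p = 0.0790 and 0.0919), as were their emetine calls in that line (0.143 and 0.0729).

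CTNND1 encodes p120-catenin, which binds and stabilises cadherins at cell junctions. Including its upstream exons allows translation from an earlier start codon and yields the long isoforms found in mesenchymal cells. The 119-nucleotide exon at chr11:57556509-57556627 (plus strand), matched as 5′ untranslated sequence, was included at 0.0180 and 0.0119 in MCF10A controls and at 0.486 and 0.488 in HMLE TWIST controls. That difference of 0.472 (adjusted p = 2.89e-41) also passed limma (0.0420). Under emetine HMLE TWIST moved further in the mesenchymal direction, to 0.775 and 0.729, a change of 0.265 (adjusted p = 0.000220; limma 0.0472). MCF10A libraries had 0.0762 and 0.0613 under emetine, both above the controls, and the change of 0.0538 (adjusted p = 0.000159; limma 0.0342) was below the size needed for a call. The 2 lines were not shown to respond differently at this exon (adjusted p = 0.510 for the difference of 0.211, tested on the odds of inclusion).

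The next CTNND1 exon has 3 alternative starts, giving forms of 289, 182 and 180 nucleotides that share most of their reads and count as 1 site. The 180-nucleotide form was included at 0.168 and 0.187 in MCF10A controls and at 0.539 and 0.503 in HMLE TWIST controls (difference 0.344, adjusted p = 1.28e-23; limma 0.107). In HMLE TWIST it rose under emetine to 0.775 and 0.712, by 0.222 (adjusted p = 0.000940; limma 0.0762). In MCF10A it stayed within the range of the controls, at 0.186 and 0.164 (change -0.00256, adjusted p = 0.902). Here the changes differed between the lines, by 0.225 for the 180-nucleotide form, 0.226 for the 182-nucleotide form and 0.167 for the 289-nucleotide form (adjusted p = 0.000307, 0.000205 and 0.00662; limma 0.404, 0.401 and 0.536). The call of the 180-nucleotide form was lost without MCF10A emetine replicate 2 (adjusted p = 0.0539), and that of the 289-nucleotide form without any of 5 libraries. 

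With other neighbours, 2 events of the 119-nucleotide exon of CTNND1 passed the size needed for a call in MCF10A, which its most covered event (0.0538) did not. When the 119-nucleotide exon was read between 57529518 and the 182-nucleotide exon at 57558964, its level was 0.370 and 0.349 in MCF10A controls and 0.813 and 0.761 under emetine (change 0.427, adjusted p = 0.00235; limma 0.0218). In HMLE TWIST the same event was at 0.994 and 0.994 in the controls and at 1 in both emetine libraries. Among MCF10A transcripts that contained the following exon, inclusion of the 119-nucleotide exon therefore rose under emetine, while most transcripts skipped both. The least covered library of that event held 29 reads. In the event ending at 57558857, inclusion in MCF10A rose by 0.211 (adjusted p = 0.0400; limma 0.219).

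SLK encodes a Ste20-like kinase that acts on microtubules and focal adhesions. Its alternative 93-nucleotide coding exon, chr10:105770574-105770666 (plus strand), is printed as an exon almost absent from HMLE TWIST that lacks a run of 3 G. Of tested exons of similar length, 62.4% had one.
SLK 93-nt: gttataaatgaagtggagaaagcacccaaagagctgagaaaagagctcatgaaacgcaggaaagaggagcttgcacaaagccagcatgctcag
It was included at 0.260 and 0.267 in MCF10A controls and at 0.00523 and 0 in HMLE TWIST controls, a difference of -0.261 (adjusted p = 1.29e-18; limma 0.0660). Under emetine the MCF10A libraries had 0.225 and 0.180, below both controls, a change of -0.0607 that did not pass the test (adjusted p = 0.112). The HMLE TWIST libraries had 0.00317 and 0 under emetine, and the rarer form was too rare there for a test.

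NUMB encodes an endocytic adaptor that restrains Notch signalling. Its 144-nucleotide exon, chr14:73745989-73746132 (minus strand), lengthens the proline-rich region, and its 33-nucleotide exon, chr14:73783098-73783130, lies in the phosphotyrosine-binding domain. They are printed as the coding exons of NUMB that moved in both lines. The longer one had 1 run of GGG (79.2% of similar-length exons have one) and the shorter had none (26.6%).
NUMB 144-nt: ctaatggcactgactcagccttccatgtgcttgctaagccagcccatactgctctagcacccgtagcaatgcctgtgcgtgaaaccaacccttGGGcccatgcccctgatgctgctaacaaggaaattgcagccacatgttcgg
NUMB 33-nt: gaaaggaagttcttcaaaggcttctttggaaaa

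The 144-nucleotide exon had levels near both ends of the scale. It was included at 0.503 and 0.448 in MCF10A controls and at 0.0717 and 0.0276 in HMLE TWIST controls (difference -0.426, adjusted p = 2.93e-34; limma 0.0850). Emetine raised it in both lines. In MCF10A it reached 0.930 and 0.913, a change of 0.446 (adjusted p = 1.51e-08; limma 0.0145), so that the line already higher moved farther from HMLE TWIST. In HMLE TWIST it reached 0.413 and 0.347, a change of 0.330 (adjusted p = 6.68e-05; limma 0.0204), which brought that line near the untreated MCF10A level. The changes were not shown to differ (difference -0.115, adjusted p = 0.903).

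The 33-nucleotide exon of NUMB did not differ between the untreated lines beyond the replicate spread, with 0.187 and 0.209 in MCF10A and 0.295 and 0.181 in HMLE TWIST (adjusted p = 0.204). It too rose under emetine, to 0.355 and 0.357 in MCF10A (change 0.158, adjusted p = 3.28e-05; limma 0.102) and to 0.386 and 0.357 in HMLE TWIST (change 0.133, adjusted p = 0.0247; limma 0.221). The latter call was lost without HMLE TWIST control replicate 2 (change 0.0767) and, like the other emetine calls, without either emetine library of the line. An 85-nucleotide exon of the untranslated region fell in HMLE TWIST from 0.740 and 0.694 to 0.643 and 0.583 (change -0.104, adjusted p = 0.0271; limma 0.298), a call lost without control replicate 1 (adjusted p = 0.162).

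CD46 encodes a membrane protein that protects cells from complement. A pair of 45-nucleotide exons code for its serine, threonine and proline-rich stalk, at chr1:207940952-207940996 and chr1:207941124-207941168 (plus strand). They are printed together because they are alike in length and place and differed in how they varied. Neither had a run of GGG, which 34.8% of exons of similar length had.
CD46 45-nt, first: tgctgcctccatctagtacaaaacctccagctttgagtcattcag
CD46 45-nt, second: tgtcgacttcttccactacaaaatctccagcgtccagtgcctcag

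The second 45-nucleotide exon was included at 0.227 and 0.217 in MCF10A controls and at 0.764 and 0.710 in HMLE TWIST controls, a difference of 0.515 (adjusted p = 5.27e-42; limma 0.0783). Emetine raised it in MCF10A to 0.322 and 0.342, by 0.110 and towards the HMLE TWIST level (adjusted p = 0.000281; limma 0.204). In HMLE TWIST it was 0.740 and 0.765 under emetine, overlapping the controls (adjusted p = 0.908). The first exon was low in both lines, at 0.109 and 0.0749 in MCF10A and at 0.127 and 0.109 in HMLE TWIST. Under emetine it was higher in MCF10A, at 0.165 and 0.188, and lower in HMLE TWIST, at 0.0258 and 0.0359. Each change was below 0.1, and the difference between them, -0.172, was called (adjusted p = 8.1e-05; limma 0.203). That call was lost without HMLE TWIST emetine replicate 1 (adjusted p = 0.0536).

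The 93-nucleotide exon of CD46, chr1:207963598-207963690, decides which cytoplasmic tail the protein carries. It was included at 0.348 and 0.331 in MCF10A controls and at 0.550 and 0.566 in HMLE TWIST controls (difference 0.219, adjusted p = 8.92e-18; limma 0.194). In HMLE TWIST it fell under emetine to 0.452 and 0.369, by -0.147 and towards MCF10A (adjusted p = 0.00805; limma 0.205). In MCF10A it was 0.366 and 0.387 under emetine (change 0.0370, adjusted p = 0.0710). The changes differed by -0.184 (adjusted p = 0.00119; limma 0.516), a call lost without either MCF10A emetine library or without HMLE TWIST emetine replicate 2. CD46 junction reads were also fewer under emetine, at 17.3 and 13.0 RPM against 50.2 and 51.8 in MCF10A, and at 4.40 and 3.67 against 10.2 and 7.03 in HMLE TWIST.

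EXOC7 encodes a subunit of the exocyst, which tethers secretory vesicles to the plasma membrane. Its alternative exons of 69 and 93 nucleotides lie side by side at chr17:74086410-74086478 and chr17:74087224-74087316 (minus strand), and the first also occurs in a 153-nucleotide form. They are printed as exons that were rare in both untreated lines and rose under emetine. The most covered events of the 69- and 93-nucleotide exons have the same outer exons and share skipping reads, so their changes are not independent. The 69-nucleotide exon held 1 run of GGG and the 93-nucleotide exon 2, one of them long. Such a run was present in 49.1% and 62.4% of exons of similar length.
EXOC7 69-nt: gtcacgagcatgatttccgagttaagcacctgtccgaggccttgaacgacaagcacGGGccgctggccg
EXOC7 93-nt: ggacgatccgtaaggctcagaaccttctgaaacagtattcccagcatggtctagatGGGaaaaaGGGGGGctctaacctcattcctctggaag

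Inclusion of the 69-nucleotide exon was 0.0730 and 0.0402 in MCF10A controls and 0.0229 and 0.0213 in HMLE TWIST controls, a difference below 0.1. Under emetine it was 0.359 and 0.282 in MCF10A, a rise of 0.264 (adjusted p = 1.92e-05; limma 0.0264). In HMLE TWIST it was 0.114 and 0.106, clear of the controls, and the change of 0.0879 (adjusted p = 0.000175; limma 0.0201) was too small to be called. The 93-nucleotide exon rose in MCF10A from 0.0418 and 0.0334 to 0.173 and 0.137 (change 0.117, adjusted p = 0.000290; limma 0.0325). The level in HMLE TWIST was 0.0643 and 0.0376 in the controls against 0.147 and 0.110 under emetine (change 0.0776, adjusted p = 0.00454). Read next to the 69-nucleotide exon, the 93-nucleotide exon was the EXOC7 event called between the untreated lines, at 0.456 and 0.535 in MCF10A and 0.813 and 0.957 in HMLE TWIST (difference 0.390, adjusted p = 0.0138; limma 0.153).

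In HMLE TWIST, emetine raised the 153-nucleotide form from 0.183 and 0.429 to 0.509 and 0.579 (change 0.238, adjusted p = 0.0446; limma 0.169). The call was lost without control replicate 1 (change 0.115, adjusted p = 0.539). That event had 30 to 135 reads per library in HMLE TWIST, and in MCF10A 1 library was below the reads needed for a test. It was 1 of 2 EXOC7 events called under emetine in HMLE TWIST. The other was not the most covered event of its exon and is not described here.

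MAGI1 encodes a scaffold protein of tight junctions. Its 36-nucleotide exon, chr3:65433697-65433732 (minus strand), is printed because it had the largest difference between the untreated lines among the most covered events of the described exons. It opens with a run of 4 G after its first bases, and 28.4% of exons of similar length contain GGG.
MAGI1 36-nt: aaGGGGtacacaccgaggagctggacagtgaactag
Inclusion was 0.110 and 0.374 in MCF10A controls and 0.883 and 0.741 in HMLE TWIST controls, a difference of 0.570 (adjusted p = 2.85e-05; limma 0.143). The MCF10A replicates lay far apart, and these libraries had 28 and 38 reads. The call was lost without HMLE TWIST control replicate 1 (adjusted p = 0.113). Under emetine the level was 0.115 and 0.185 in MCF10A (adjusted p = 0.326) and 0.861 and 0.938 in HMLE TWIST (adjusted p = 0.447), which did not pass the test.

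Another MAGI1 exon occurs in forms of 204 and 201 nucleotides whose starts are 3 bases apart. The 204-nucleotide form rose in MCF10A from 0.520 and 0.720 to 0.872 and 1 (change 0.316, adjusted p = 0.0246; limma 0.113). This call was lost without control replicate 1 (change 0.216, adjusted p = 0.181). In HMLE TWIST it had 0.343 and 0.343 in the controls against 0.556 and 0.494 under emetine (change 0.182, adjusted p = 0.0896). The 201-nucleotide form, with largely the same reads, changed by 0.333 in MCF10A (adjusted p = 0.0235; limma 0.114), and that call too was lost without control replicate 1 (adjusted p = 0.173).

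TCF7L2 encodes a transcription factor of the Wnt pathway that binds beta-catenin. Its 69-nucleotide exon near the 5′ end, chr10:114724315-114724383 (plus strand), is printed because emetine brought it in MCF10A to the level of untreated HMLE TWIST. It held no run of GGG, against 49.1% of exons of similar length with one.
TCF7L2 69-nt: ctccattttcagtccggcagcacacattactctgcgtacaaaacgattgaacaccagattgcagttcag
It was included at 0.405 and 0.435 in MCF10A controls and at 0.160 and 0.156 in HMLE TWIST controls, a difference of -0.262 (adjusted p = 8.83e-07; limma 0.130). In MCF10A it fell under emetine to 0.133 and 0.155, by -0.276 (adjusted p = 3.46e-05; limma 0.0321). The level in HMLE TWIST was 0.0899 and 0.116 under emetine, below both controls, and the change of -0.0550 did not pass the test (adjusted p = 0.116).

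Near its 3′ end TCF7L2 has several exons that are joined in alternative combinations. The 73-nucleotide exon at chr10:114920378-114920450, read between 114917828 and 114925314, was included at 0.695 and 0.609 in MCF10A controls and at 0.278 and 0.287 in HMLE TWIST controls (difference -0.369, adjusted p = 0.000410; limma 0.119). It fell further in HMLE TWIST under emetine, to 0.0325 and 0.0483 (change -0.243, adjusted p = 0.00301; limma 0.0149). In MCF10A it was 0.565 and 0.439 (change -0.150, adjusted p = 0.0820). The line difference was lost without either HMLE TWIST control (adjusted p = 0.0629 and 0.141), where the controls had 30 and 56 reads.

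Read after the exon that ends at 114919751, the same 73-nucleotide exon had a called change in HMLE TWIST and none in MCF10A. In MCF10A it was 0.657 and 0.747 in the controls against 0.874 and 0.764 under emetine, a change of 0.117 that did not pass the test (adjusted p = 0.268; limma 0.295). The level in HMLE TWIST fell from 0.278 and 0.591 to 0.0460 and 0.0717 (change -0.376, adjusted p = 0.0123; limma 0.0348). The changes differed by -0.493 (adjusted p = 0.0129; limma 0.226), the largest among the called ones, at 20 reads in the least covered library.

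In MCF10A emetine also lowered the 51-nucleotide exon of TCF7L2 at chr10:114918426-114918476, from 0.414 and 0.370 to 0.132 and 0.134 (change -0.259, adjusted p = 0.00422; limma 0.0334). The other 73-nucleotide exon, at chr10:114919679-114919751, changed by -0.132 (adjusted p = 0.0360; limma 0.0542). An exon in the middle of the gene, in forms of 141 and 144 nucleotides whose starts are 3 bases apart, rose by 0.122 in each form (adjusted p = 0.00829 and 0.00262; limma 0.146 and 0.0762). In HMLE TWIST these 4 forms were not called. The 51-nucleotide exon was 0.490 and 0.406 in the controls there against 0.212 and 0.301 under emetine (change -0.191, adjusted p = 0.0592). Its changes were not shown to differ between the lines (adjusted p = 0.583). The 73-, 141- and 144-nucleotide forms changed by 0.00942, -0.00714 and 0.0257 in HMLE TWIST.

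LSR encodes a membrane protein of the junctions where 3 epithelial cells meet, and a lipoprotein receptor. Its event around the 147-nucleotide exon, chr19:35753449-35753595 (plus strand), held 1336 and 1130 reads in untreated MCF10A, against 1 and 3 in untreated HMLE TWIST, so that its splicing could be measured in MCF10A alone. The exon is printed because its most covered event had the largest change under emetine in MCF10A among those of the described exons. It held 1 run of GGG, and 79.9% of exons of similar length held at least 1.
LSR 147-nt: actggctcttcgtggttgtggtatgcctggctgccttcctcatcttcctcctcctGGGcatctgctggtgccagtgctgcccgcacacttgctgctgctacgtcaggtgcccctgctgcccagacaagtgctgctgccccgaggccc
Inclusion rose from 0.354 and 0.404 in the controls to 0.831 and 0.823 under emetine, by 0.448 (adjusted p = 1.03e-08; limma 0.0178). Under emetine the HMLE TWIST libraries had 26 and 13 reads in this event, still too few for a test. The 57-nucleotide exon before it, joined to it, was 0.217 and 0.205 in the controls against 0.252 and 0.257 under emetine (change 0.0433, adjusted p = 0.0912). Joined to the exon at 35757262, it rose from 0.0522 and 0.0705 to 0.320 and 0.347 (change 0.272, adjusted p = 8.69e-07; limma 0.0195). This event has the same outer exons as that of the 147-nucleotide exon given first. They share skipping reads, so their changes are not independent. With other neighbours, untreated MCF10A already included the 147-nucleotide exon in most transcripts. After the exon ending at 35741562, levels of 0.903 and 0.936 became 0.996 and 0.986 with emetine (change 0.0716, adjusted p = 0.0016). After the 57-nucleotide exon, 0.932 and 0.926 became 0.982 and 0.984 (change 0.0538, adjusted p = 0.0032). Both changes were below the size needed for a call. The rise of 0.448 is that of the most covered event.

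Events of a gene can share reads, so the counts over events are given with the genes they lie in. In MCF10A 19 of 66 tested events were called (28.8%), 14 higher and 5 lower, against 13.1% of all 25522 tested events, of which 7.91% were higher and 5.15% lower. The calls lay in 8 of 9 genes, SLK being the exception, and 8 genes had a higher event and 2 a lower one. In HMLE TWIST 16 of 56 were called (28.6%), 12 higher and 4 lower, against 14.1% of 30290 events, where lower inclusion was the more frequent (7.94% against 6.15% higher). These lay in 6 of 8 tested genes, with none in SLK and MAGI1, and by gene the directions were closer, with 4 genes that had a higher event and 3 that had a lower one. Of the 12 higher events 6 were CTNND1 events and 2 were the overlapping ENAH forms. The median absolute change was 0.0455 in MCF10A and 0.0701 in HMLE TWIST for the members, and 0.0239 and 0.0255 for all tested events.

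The number of emetine calls depended on the estimate of replicate spread. With moderated dispersions, each emetine call above was lost without either emetine library of its line. This includes the calls for which only a control library was named. limma on the log2 odds called 8 member events in MCF10A and 6 in HMLE TWIST. Without MCF10A emetine replicate 1 or 2 the quasi-binomial model with moderated dispersions called 0 member events in MCF10A, with 29 and 25 at an unadjusted p-value under 0.05. Without HMLE TWIST emetine replicate 1 or 2 it called 0 there, with 16 and 21. With a single dispersion shared by all events, a choice made after seeing the data, 16 to 18 and 13 to 17 were called when a library was left out. In the authors' deposited tables, 18 of 19 MCF10A calls and 16 of 16 HMLE TWIST calls made here had a false discovery rate under 0.05.

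**Figure D2:**
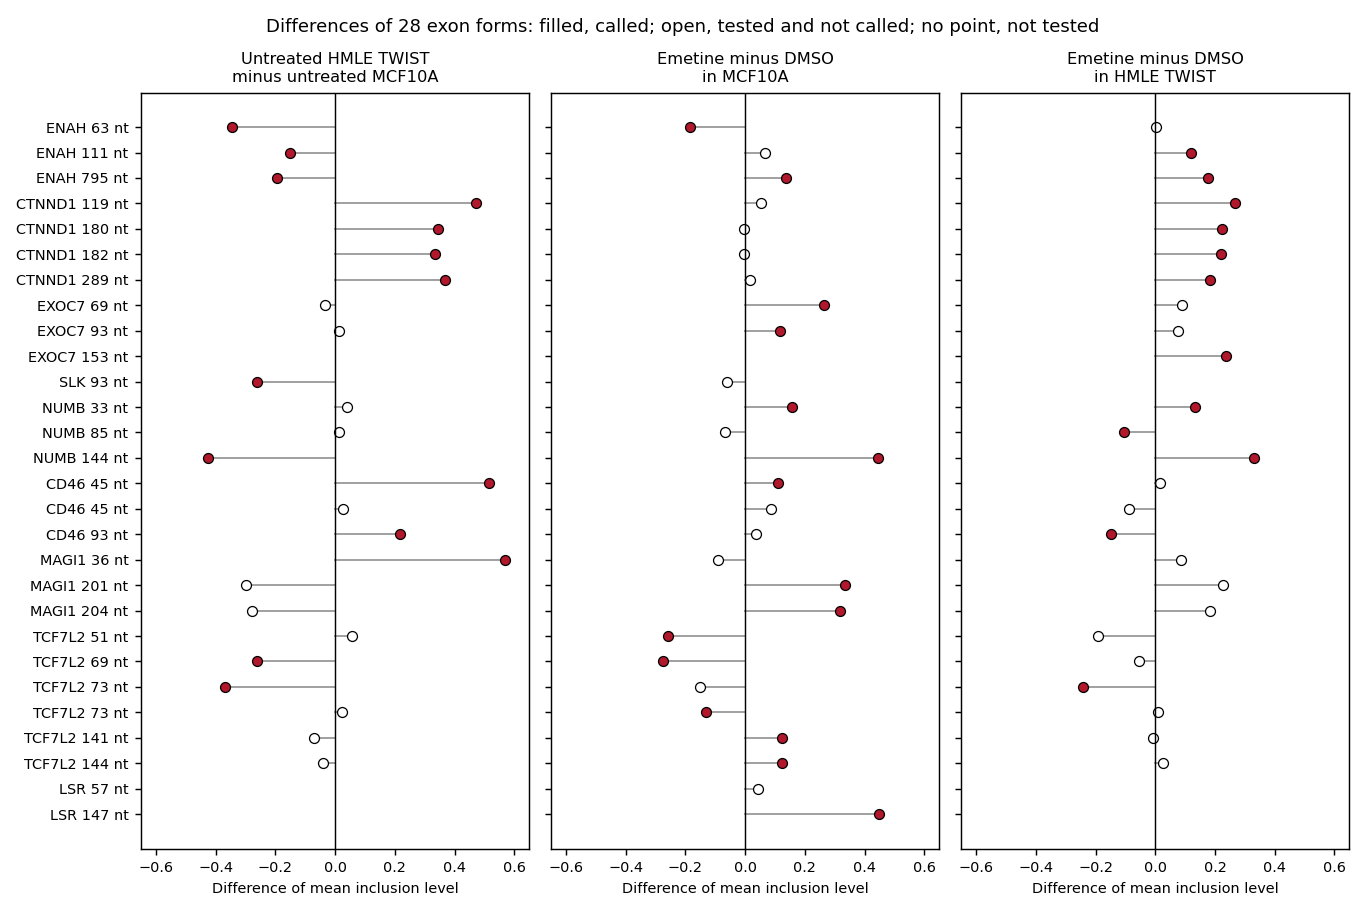
Difference of mean inclusion level (horizontal axis) for the 28 described exon forms, ordered by gene and length, between the untreated lines (left) and under emetine in MCF10A (middle) and HMLE TWIST (right). Filled points were called, open points were tested and not called, and a missing point was not tested; the points reach from -0.426 to 0.570 in the left panel, and NUMB 144-nt lies left of 0 there and right of 0 under emetine in both lines.

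Whether emetine moved an exon towards the form of the other line was counted over the 14 exon forms called between the untreated lines, 11 exons that do not overlap, in 7 genes. The CTNND1 exons among them do not overlap but share skipping reads. In MCF10A 8 of the 14 had a mean under emetine nearer to untreated HMLE TWIST, and 6 were farther from it. Of the 5 whose change was called, ENAH 63-nt, CD46 45-nt and TCF7L2 69-nt moved nearer, and NUMB 144-nt and ENAH 795-nt moved away. In HMLE TWIST 5 of the 14 came nearer to untreated MCF10A and 9 went farther. Of the 9 called changes there, 4 were nearer (CD46 93-nt, NUMB 144-nt and both ENAH forms of the second site) and 5 farther (the 4 CTNND1 forms and TCF7L2 73-nt). The counts are a description, since these comparisons share the control libraries. No single direction relative to the other line covered the set in either line.

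For the 2 genes with a known epithelial form, the called changes were away from it: ENAH in MCF10A, by -0.184 for the included epithelial exon, and CTNND1 in HMLE TWIST, by 0.265 for the 119-nucleotide exon that epithelial cells skip. In MCF10A, 2 events of that 119-nucleotide exon with other neighbours, given above, also had called rises. Neither gene had a called change towards its epithelial form in these exons.

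The response itself was compared between the lines by an interaction of line and treatment fitted to the 8 libraries, which tests the odds of inclusion. Of 55 tested member events 7 were called (12.7%), 4 with the more positive change in HMLE TWIST and 3 with the more negative, against 1.62% of 31825 (0.518% more positive and 1.1% more negative). They were the ENAH 63-nt exon, the 3 CTNND1 forms, both CD46 events and the TCF7L2 73-nt event given above. limma called 0 of the 55 and 0 of all 31825 events, with 9 and 4058 at an unadjusted p-value under 0.05; the smallest adjusted one over all events was 0.197. Without MCF10A emetine replicate 1 or 2 the model called 4 and 2, without HMLE TWIST control replicate 2 it called 4, and without HMLE TWIST emetine replicate 1 or 2 it called 3 and 4.

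The remaining 21 tested exon forms of the 9 genes were not called in their most covered event, and one form made up less than 10% of their reads. In EXOC7, SLK, CD46 and LSR they were nearly always included, with levels from 0.927 upwards in every library. In ENAH, CTNND1 and NUMB they included both nearly constant exons and rare ones, from 0 to 1.

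**Figure D3:**
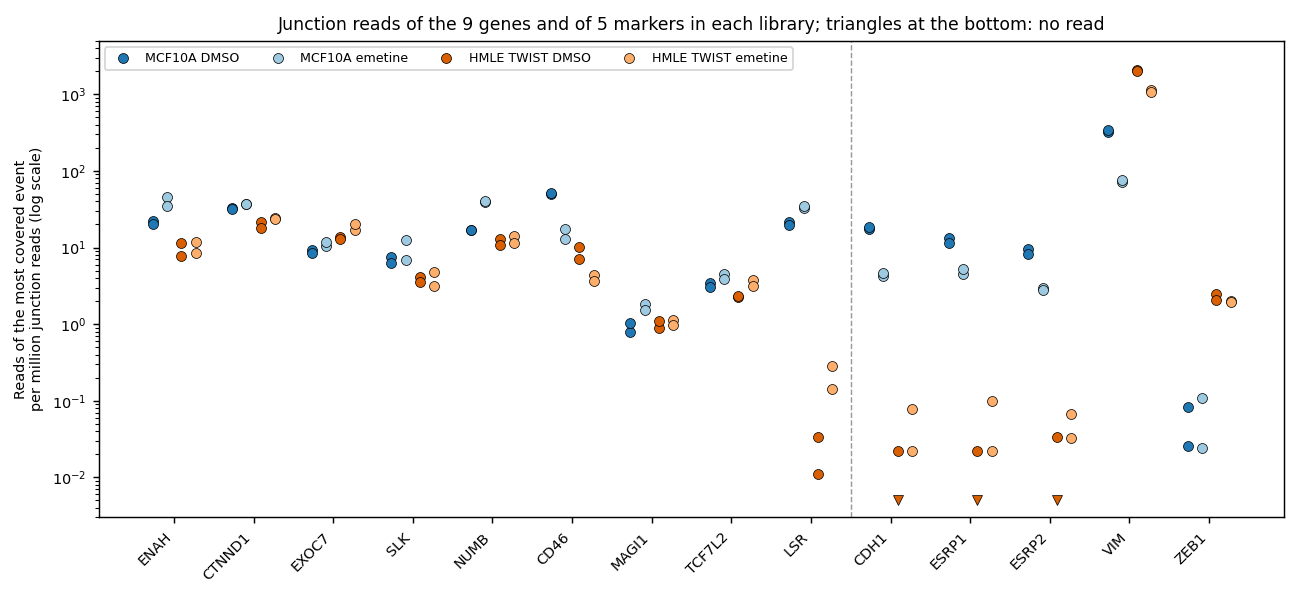
Junction reads of each gene's most covered event, in reads per 1000000 junction reads (RPM, vertical axis, log scale) in the 8 libraries, for the 9 genes (left of the dashed line) and 5 markers. LSR lies between 19.9 and 34.7 in MCF10A and at or below 0.287 in HMLE TWIST, with CDH1, ESRP1 and ESRP2 placed likewise, and triangles at the bottom mark libraries without a read.

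The depth available for each gene differed between lines and treatments. ENAH had 22.4 and 20.2 RPM in MCF10A controls and 46.3 and 34.8 under emetine, while NUMB had 17.2 and 17.0 and then 39.2 and 40.9. In HMLE TWIST the same genes had 11.4 and 7.68 (ENAH) and 12.9 and 10.9 (NUMB) in the controls, and 11.7 and 8.57 and 14.1 and 11.5 under emetine. MAGI1 was the shallowest gene apart from LSR in HMLE TWIST, with 0.791 to 1.84 RPM over all libraries.

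A list of 33 other genes with exons known to differ between epithelial and mesenchymal cells was counted in the same way. Between the untreated lines 36 of their 110 tested events were called (32.7%), in 26 of 32 tested genes, 18 in each direction. Under emetine 28 of 134 were called in MCF10A (20.9%), 14 in each direction, and 35 of 156 in HMLE TWIST (22.4%), of which 8 rose and 27 fell. The 9 member genes had 12 higher and 4 lower in that line, and the difference between the lists was not tested. The change differed between the lines in 14 of 169 events (8.28%), 12 of them more negative in HMLE TWIST.

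The 4 genes of that list with the largest line differences are given as a scale for the members. ARHGEF11 included its 96-nucleotide exon at 0.0746 and 0.0704 in MCF10A controls and at 0.933 and 0.942 in HMLE TWIST controls (difference 0.865, adjusted p = 2.22e-33; limma 0.0408), and emetine lowered it in HMLE TWIST to 0.720 and 0.713. CLSTN1, a membrane protein, included its 57-nucleotide exon at 0.164 and 0.154 and at 0.956 and 0.957 (difference 0.798), with 0.724 and 0.819 under emetine in HMLE TWIST. PLEKHA1, a phosphoinositide-binding protein, had 0.0642 and 0.0746 against 0.850 and 0.847 at its 41-nucleotide exon (difference 0.779), and 0.170 and 0.310 under emetine in HMLE TWIST. DNM2, which encodes the GTPase dynamin, went the other way at a 12-nucleotide exon, with 0.938 and 0.926 against 0.245 and 0.236 (difference -0.691), and 0.386 and 0.343 under emetine in HMLE TWIST. In HMLE TWIST these 4 changes were called. In MCF10A they ran from -0.0803 (CLSTN1) to 0.00916 (ARHGEF11), below the size needed for a call. The 4 were chosen for extreme levels in the untreated lines and are compared with the same controls, so their direction under emetine is a description, and the other genes of the list were not counted in this way.

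**Figure D4:**
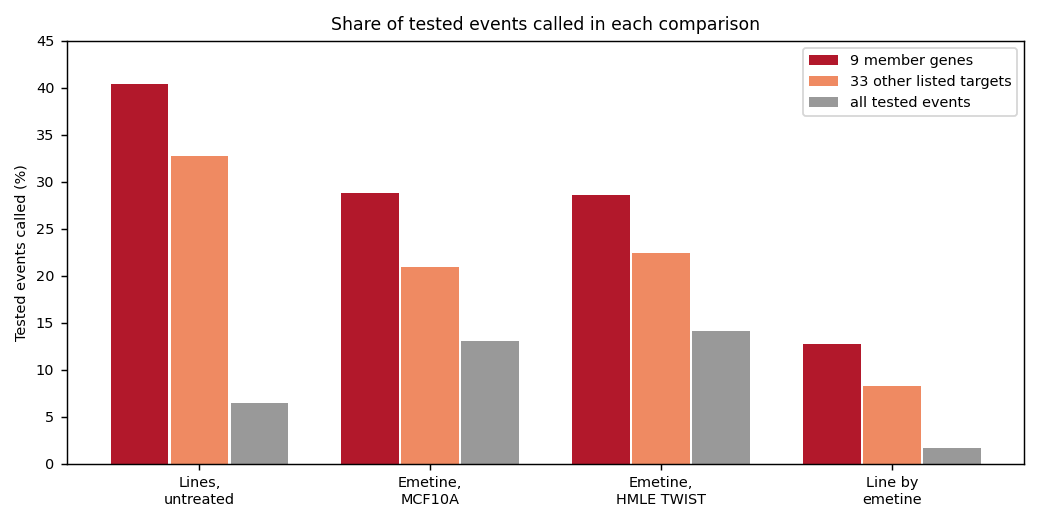
Share of tested events called (vertical axis, percent, from 0) in each of the 4 comparisons for the 9 member genes, the 33 other listed targets and all tested events. The members' bars are at 40.4, 28.8, 28.6 and 12.7%, the bars of all events at 6.49, 13.1, 14.1 and 1.62%.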

How the data were processed

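Libraries were stranded, paired-end and polyA-selected, per the labels' protocols, and were aligned with STAR 2.5.3a to GRCh37, per the submitters' processing notes. The authors deposited an rMATS skipped-exon table per line, with the junction counts of a group's libraries as a pair in a cell, a p-value and FDR per event, and a difference score, per the file headers. The counts, tested as inclusion against skipping reads, had effective lengths of 99 for skipping and 100 to 198 for inclusion. The 4 columns of deposited inclusion levels were not used, and levels were computed from the counts. The control was taken as the first group, from the order in the tables' names, and the first value of a pair as replicate 1.

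Events needed 20 reads per library and 10 of the rarer form. A quasi-binomial logistic model was fitted to every event (numpy 2.4.6), its dispersions were moderated with limma 3.58.1 (squeezeVar, R 4.3.3) and floored at 1, and F test p-values were adjusted by Benjamini-Hochberg over all tested events. limma on log2 odds (0.5 added) was the alternative, beside other dispersions, filters, lengths, a replicate block and left-out libraries. The code was tested on simulated data.

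An exon was represented by its most covered event and described if called or if its rarer form held 10% of reads, up to 4 per gene in full. Called events with other neighbours, and the sequences printed, were chosen after their values were seen. The members and lists were chosen with earlier results of these data known. Exon sequences come from GENCODE 29 transcripts (GRCh38), matched by gene ID and the lengths of exon and introns, with no coordinates carried over. Same-numbered libraries did not deviate together across events (correlations 0.0390, 0.0270 and 0.0211), so the numbers were not taken to pair the samples. Replicates differed by more than counting error (mean chi-square per event 2.08 to 2.19, where 1 is sampling noise).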

Additional observations from a re-analysis of the deposited data

Results flagged for a closer look

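The response to emetine differed between the lines in 7 member events, by the term for line by treatment in the quasi-binomial model. Values are the change in HMLE TWIST minus the change in MCF10A. The 63-nucleotide exon of ENAH gave 0.187, with a level that fell in MCF10A and was near 0 in HMLE TWIST in every library. The HMLE TWIST level left no room for a like fall. The 3 overlapping CTNND1 forms gave 0.167 (289 nucleotides), 0.226 (182) and 0.225 (180), with a rise called in HMLE TWIST alone. CD46 gave -0.172 at the first 45-nucleotide exon and -0.184 at the 93-nucleotide exon. The 73-nucleotide exon of TCF7L2, read after 114919751, gave -0.493, at as few as 20 reads in a library. limma called 0 of these 7, and 0 of all tested events, with 9 member events and 4058 of all at an unadjusted p-value under 0.05.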

How the results depend on the processing

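Over the 45 exon comparisons called, other tests, dispersions, filters and lengths gave 270 values, of which 165 kept the call. Other tests, dispersions and filters used the same levels, so the direction was fixed there and only the call was tested. Without length correction the levels differed, and the direction was kept in 45 of 45 and the call in 41. With a library left out, the direction was kept in 204 of 204 values and the call in 126. With 1 dispersion shared by all events, added after seeing the data, 191 of the 204 kept the call.

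Of the 21, 19, 16 and 7 member events called (lines, emetine in MCF10A, emetine in HMLE TWIST, line by emetine), limma called 2, 8, 6 and 0. The fit with the replicate block, which left fewer degrees of freedom, called 11, 0, 0 and 0, with 28, 25, 22 and 15 at an unadjusted p-value under 0.05; its pairing of libraries rests only on their order in a cell. With at least 1 read per library as the sole filter, 0 of 88 were called between the lines by the quasi-binomial model, with 28 at an unadjusted p-value under 0.05. Leaving out a library gave 14 to 21, 0 to 16, 0 to 13 and 2 to 6 calls, and with the shared dispersion 19 to 22, 16 to 18, 13 to 17 and 5 to 8. The exons nearer to the other line (8 in MCF10A, 5 in HMLE TWIST) were counted again under alternatives chosen after seeing the data: limma left 1 and 0 (of 1 exon called between the lines), the read filter of 1 left 0 and 0 (of 0), the replicate block left 3 in HMLE TWIST (of 9), and left-out libraries gave 7 to 11 and 4 to 6.

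Signs changed in 13 exon comparisons, none of them called. With a library left out, emetine changes ran from -0.0107 to 0.0432 (CD46 second 45-nt, HMLE TWIST), -0.0146 to 0.00472 (CTNND1 182-nt, MCF10A), -0.0132 to 0.00807 (CTNND1 180-nt, MCF10A), -0.00270 to 0.00977 (ENAH 63-nt, HMLE TWIST), -0.224 to 0.0403 (MAGI1 36-nt, MCF10A) and -0.0309 to 0.0166 (TCF7L2 141-nt, HMLE TWIST). Line differences ran from -1.99e-05 to 0.0267 (EXOC7 93-nt), -0.00855 to 0.0371 (NUMB 85-nt) and -0.0163 to 0.0969 (NUMB 33-nt), and differences of response from -0.0112 to 0.0898 (ENAH 795-nt) and -0.0811 to 0.0321 (NUMB 33-nt). With the shared dispersion the reversed values were the same ones, 0.00356, 0.00729 and 0.0126 among them. Without length correction the difference of response was 0.0120 (MAGI1 201-nt) and 0.141 (NUMB 144-nt, against -0.115). The least covered library held 14 reads for EXOC7 153-nt, 28 to 38 for the MAGI1 exons and 30 to 44 for the 3′ exons of TCF7L2, and LSR in HMLE TWIST was not testable.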
